A study of Mus musculus with 24 samples.

Results

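The genes described here are interferon-stimulated genes, a set of 37 names whose transcripts are induced when a cell receives interferon. A gene belonged to the set when the symbol given for its probe set matched 1 of the names exactly. This found 36 genes, each with 1 probe set, among 21144 genes tested. Ifi213, the remaining name, was matched only through Pydc4, its older symbol, and its values are given apart from the counts.

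Expression was measured on Affymetrix arrays in whole liver RNA from 24 mice, 1 array a mouse and 3 mice in each of 8 groups. Mice were N-RAS+/+ (wild type) or N-RAS-/-, with Nras deleted in the germline and so in all cells, and were labelled as males of 8 to 10 weeks. The study's methods place both on C57BL/6J, and differences between the lines other than the deletion cannot be told apart from it. In 1 experiment the bile duct was ligated (BDL) or sham surgery was done, and livers were taken on day 28. In the other, carbon tetrachloride (CCl4), which is toxic to hepatocytes, or corn oil alone was injected over 4 weeks, so that the 8 groups are both genotypes after sham, BDL, oil and CCl4.

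Interferons are secreted in response to viruses, microbial products or nucleic acids released into the wrong compartment. Type I interferons (alpha and beta) act through Ifnar1 and Ifnar2 on a complex that holds Stat2 and Irf9 and binds the interferon-stimulated response element (ISRE). Interferon gamma acts through Ifngr1 and Ifngr2 and is read at the gamma-activated site (GAS). Many of the induced proteins bind, cut or modify viral RNA, and several restrain the signal itself. In the liver both hepatocytes and resident or recruited immune cells can respond.

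Promoter sequences show the elements through which such genes are read. Windows from 250 bases before to 50 bases after the transcription start were taken from RefSeq (GRCm38.p6) and matched for 26 of the 36 members. Either strand was searched for the ISRE core, which is GAAA followed by any 2 bases and by GAAA again, and for the GAS letters TTCNNNGAA, which read the same on both strands. The ISRE core was present in 15 of the 26 genes (57.69%), against 3.99% of 27025 genes in the table. The GAS letters were present in 7 of 26 (26.92%), against 9.55% of all genes. A match describes these letters in this window and is not a site shown to be bound. The 5 windows below belong to genes on which the results turn, with the matches in capitals and each sequence read 5′ to 3′ on the strand of its gene.
Isg15 (chr4:156200769-156201068, minus strand): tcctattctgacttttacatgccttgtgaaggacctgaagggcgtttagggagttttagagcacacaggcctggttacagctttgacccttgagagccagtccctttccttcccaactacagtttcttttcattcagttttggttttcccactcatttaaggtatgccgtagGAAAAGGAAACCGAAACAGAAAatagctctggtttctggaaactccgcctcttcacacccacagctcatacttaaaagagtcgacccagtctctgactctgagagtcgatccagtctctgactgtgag
Ifit1 (chr19:34640639-34640938, plus strand): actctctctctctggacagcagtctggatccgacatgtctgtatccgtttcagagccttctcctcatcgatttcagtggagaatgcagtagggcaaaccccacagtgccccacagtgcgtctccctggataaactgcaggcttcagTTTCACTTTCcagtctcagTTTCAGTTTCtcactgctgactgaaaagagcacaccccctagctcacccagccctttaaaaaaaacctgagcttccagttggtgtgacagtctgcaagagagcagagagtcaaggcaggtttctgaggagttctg
Rsad2 (chr12:26456403-26456702, minus strand): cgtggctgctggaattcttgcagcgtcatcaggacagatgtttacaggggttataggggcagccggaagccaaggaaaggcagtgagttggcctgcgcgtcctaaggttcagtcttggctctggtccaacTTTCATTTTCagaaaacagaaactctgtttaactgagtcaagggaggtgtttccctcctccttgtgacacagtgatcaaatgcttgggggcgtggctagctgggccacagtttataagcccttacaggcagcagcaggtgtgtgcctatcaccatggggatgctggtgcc
Igtp (chr11:58199306-58199605, plus strand): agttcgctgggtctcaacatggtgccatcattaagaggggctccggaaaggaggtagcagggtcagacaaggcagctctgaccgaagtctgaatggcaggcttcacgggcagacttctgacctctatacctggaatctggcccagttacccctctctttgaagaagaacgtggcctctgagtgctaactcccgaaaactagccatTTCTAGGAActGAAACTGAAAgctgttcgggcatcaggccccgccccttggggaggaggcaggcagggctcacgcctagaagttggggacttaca
Mndal (chr1:173880138-173880437, minus strand): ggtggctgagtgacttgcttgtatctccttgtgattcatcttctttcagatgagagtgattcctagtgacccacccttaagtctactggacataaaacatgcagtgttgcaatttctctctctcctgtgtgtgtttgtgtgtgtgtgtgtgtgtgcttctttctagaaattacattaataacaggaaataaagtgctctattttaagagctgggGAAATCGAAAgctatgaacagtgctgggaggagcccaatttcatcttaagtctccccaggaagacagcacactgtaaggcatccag
In Isg15 the capitals are 3 overlapping ISRE matches that began 78, 72 and 66 bases before the start. Ifit1 held 2 separate matches, at 104 and 85 bases before it, in the opposite orientation. Rsad2 held 1 match at 120 bases. In Igtp a GAS match at 45 bases lay just upstream of an ISRE match at 34 bases. Mndal has 2 windows in the table, and the one shown has 1 ISRE match 36 bases before its start.

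All values are log2 signals as deposited, already normalized between arrays, and each ± after a group mean is an SD over 3 mice. Each comparison came from a limma fit with Benjamini-Hochberg adjustment across the 21144 genes, and only genes with an adjusted p under 0.05 are described as having risen or fallen. Counts of members or markers at an unadjusted p under 0.05 have no matching share over all genes. They cannot be set against the shares given for adjusted p. Array medians lay between 5.55 and 5.70. Nras, the deleted gene, read 4.55 to 5.55 in N-RAS-/- livers and 5.92 to 8.04 in N-RAS+/+ livers. On 6 arrays labelled male the mean Y-linked signal was 3.0 to 3.59, against 6.84 to 8.25 on the other 18. These 6 were 2 of 3 N-RAS+/+ sham livers, all 3 N-RAS-/- sham livers and 1 N-RAS-/- oil liver, so counts are also given without them where calls were lost. One N-RAS-/- BDL array had an Acta1 value, a skeletal muscle transcript, of 10.88.

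Averaged over the 36 members, the value per array showed a higher level after CCl4 than after oil and a lower one after BDL than after sham. N-RAS+/+ livers averaged 6.58 ± 0.16 after oil and 7.18 ± 0.17 after CCl4. N-RAS-/- livers averaged 6.94 ± 0.18 after oil and 7.58 ± 0.39 after CCl4. In the surgical experiment the averages were 6.94 ± 0.15 after sham and 6.49 ± 0.07 after BDL in N-RAS+/+ livers. The N-RAS-/- averages were 6.83 ± 0.19 and 6.56 ± 0.12. In N-RAS+/+ livers the oil average lay nearer to that after BDL than to that after sham, so the controls of the experiments differed too. Single members ranged over 0.76 log2 units across the 24 arrays for Irf8 and over 4.32 for Igtp.

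**Figure D1:**
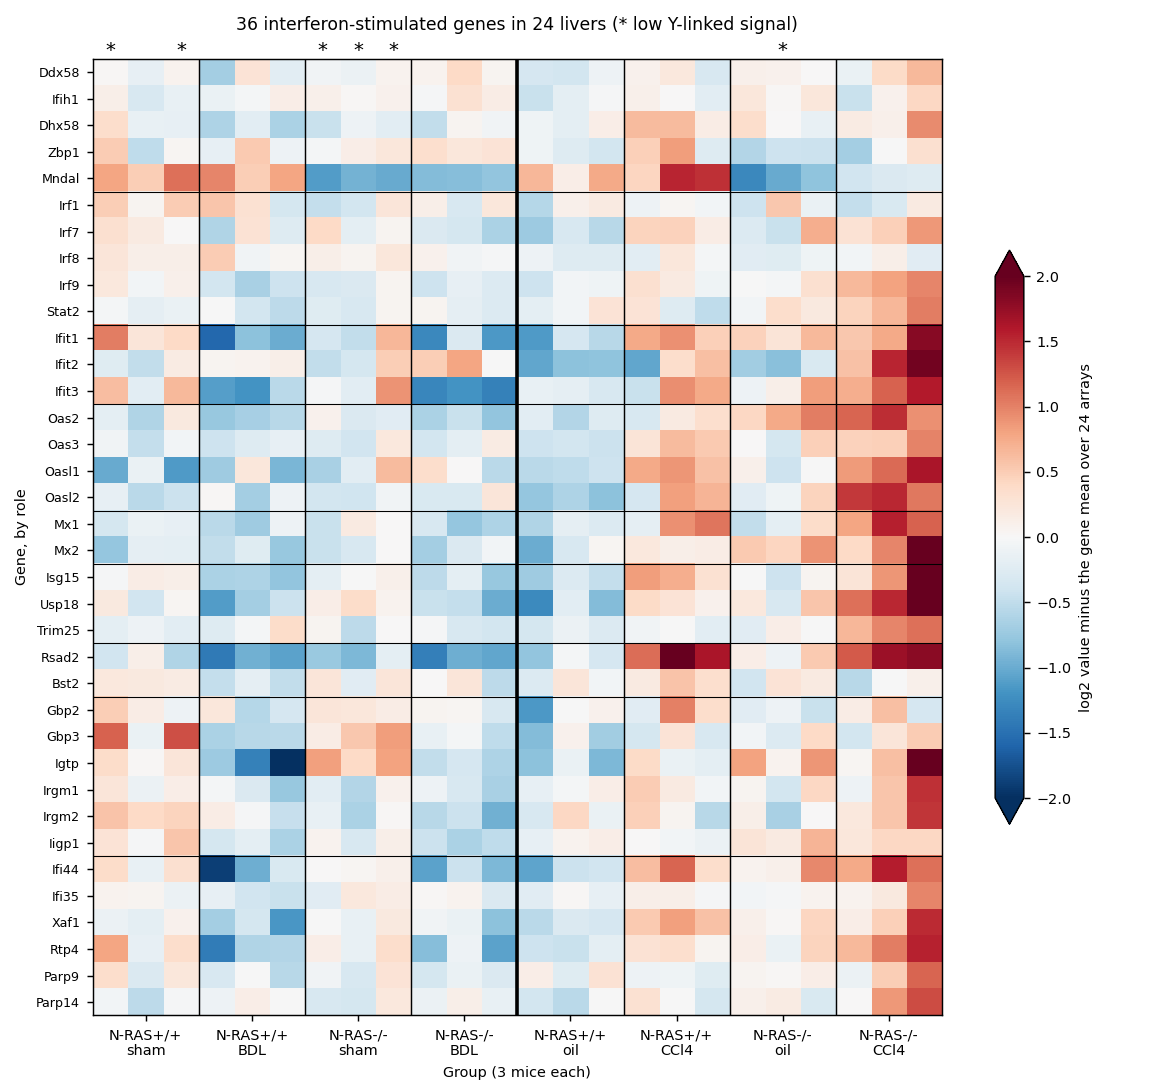
Each row is 1 of the 36 members grouped by role, each column 1 of 24 arrays, and colour is the log2 value minus the mean of that gene over all arrays. The CCl4 columns of both genotypes are mostly red, the BDL columns mostly blue, and the Mndal row divides by genotype. Low values are not particular to BDL, as the N-RAS+/+ members averaged 6.58 after oil and 6.49 after BDL. Stars mark the 6 arrays with a low Y-linked signal.

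CCl4 raised part of the set in both genotypes. In N-RAS+/+ livers 11 of 36 members rose (30.6%) and none fell, where 8.08% of all genes rose and 7.16% fell. The median member difference was 0.58 on the log2 scale, against 0.01 over all genes, and 33 of 36 differences were positive. Likewise 11 members rose and none fell in N-RAS-/- livers, with 13.6% of all genes higher and 9.19% lower, and the median member difference was 0.56 against -0.02. At an unadjusted p under 0.05 the counts were 17 and 18 higher and 0 lower in either genotype, with no share of all genes counted at that threshold.

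Rsad2, the enzyme viperin that makes a chain-terminating nucleotide against viral polymerases, had the highest rise of the members in N-RAS+/+ livers. Its values were 5.82, 6.57 and 6.28 after oil and 7.73, 9.29 and 8.24 after CCl4. The groups did not overlap, and the difference was 2.20 ± 0.32 (SE), 4.58-fold, at an adjusted p of 0.00031. The N-RAS-/- values went from 6.74, 6.51 and 7.13 to 7.85, 8.32 and 8.42, a rise of 1.40 ± 0.32 (adjusted p = 0.0050). The oil and CCl4 livers were again apart.

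Among the Ifit proteins, which bind viral RNA and lie next to each other in the genome, the genotypes had different members past the threshold. Ifit1 read 4.49, 5.29 and 5.07 after oil and 6.39, 6.54 and 6.10 after CCl4 in N-RAS+/+ livers, a rise of 1.39 ± 0.28 (adjusted p = 0.0036). It was already 6.08, 5.89 and 6.28 after oil in N-RAS-/- livers and 6.17, 6.39 and 7.45 after CCl4, and the difference of 0.59 ± 0.28 missed the threshold (adjusted p = 0.16). Ifit2 rose in N-RAS-/- livers from 3.65, 3.51 and 4.04 to 4.94, 5.87 and 6.28, by 1.96 ± 0.37 (adjusted p = 0.0012). Its N-RAS+/+ values spread from 3.30 to 4.94 after CCl4, around 3.30, 3.52 and 3.54 after oil. Ifit3 missed the threshold in both genotypes, at 0.63 ± 0.32 and 0.88 ± 0.32.

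Isg15, a ubiquitin-like protein attached to other proteins, and Usp18, the protease that removes it and also blocks the type I receptor, rose in both genotypes. Isg15 went from 4.41, 4.85 and 4.64 to 5.95, 5.85 and 5.43 in N-RAS+/+ livers, a difference of 1.11 ± 0.35. Its N-RAS-/- values went from 5.11, 4.70 and 5.18 to 5.38, 6.0 and 7.32, where 1 liver stood far above the others. Usp18 rose by 1.03 ± 0.30 in N-RAS+/+ livers, from 6.42, 7.48 and 6.81 to 8.07, 7.95 and 7.77. It rose by 1.48 ± 0.30 in N-RAS-/- livers, from 7.89, 7.36 and 8.23 to 8.78, 9.19 and 9.96. Trim25, a ubiquitin ligase that acts on the RNA sensor Ddx58 and also attaches Isg15, rose by 0.95 ± 0.16 in N-RAS-/- livers and differed by 0.16 ± 0.16 in N-RAS+/+ livers.

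**Figure D2:**
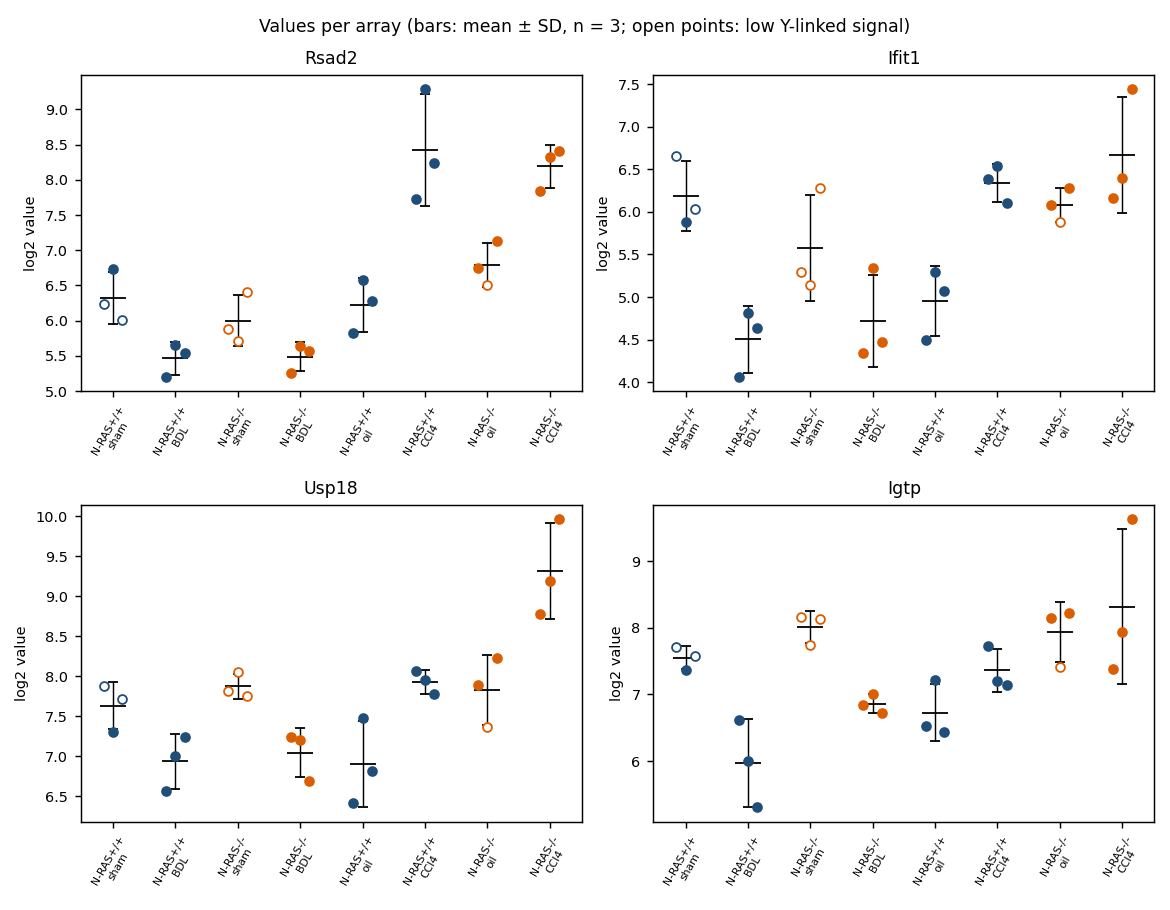
Log2 values of Rsad2, Ifit1, Usp18 and Igtp in each liver, with the mean and SD of 3 mice as bars and arrays of low Y-linked signal as open points. Rsad2 after CCl4 lies at 7.73 and above in both genotypes, and Igtp after BDL lies below all sham livers of the same genotype.

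The oligoadenylate synthetases make a short RNA messenger that switches on RNase L, and Oasl1 is a relative without that activity. Oasl1 and Oasl2 rose by 1.23 ± 0.19 and 1.13 ± 0.26 in N-RAS+/+ livers and by 1.31 ± 0.19 and 1.28 ± 0.26 in N-RAS-/- livers. Oas3 rose by 0.88 ± 0.20 and 0.60 ± 0.20, from values near the bottom of the scale (3.09 to 4.00 after oil). Mx1, a GTPase that blocks influenza viruses, rose by 0.96 ± 0.30 and 1.28 ± 0.30. Mx1 and Mx2 are annotated as transcribed pseudogenes in the reference strain of GRCm38.p6, so their signals are transcripts that need not give a protein. Mx2 read 0.59 ± 0.32 and 0.51 ± 0.32 and missed the threshold in both.

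Other members rose in 1 genotype only by the threshold. In N-RAS+/+ livers these were Irf7, the factor that amplifies alpha interferon production, at 0.89 ± 0.26, Ifi44 at 1.33 ± 0.28 and Xaf1, a partner of the apoptosis inhibitor XIAP, at 1.03 ± 0.26. Those of the N-RAS-/- livers were Irf9, a subunit of the ISRE-binding complex, at 0.72 ± 0.17, and Rtp4, a chaperone of membrane receptors, at 0.93 ± 0.21. The lists of 11 shared 7 genes, 63.6% of each: Isg15, Mx1, Oas3, Oasl1, Oasl2, Rsad2 and Usp18. No member differed in its CCl4 response between the genotypes (0 called, 2.36% of all genes called), and 2 did so at an unadjusted p under 0.05. Trim25 was among these 2, at 0.80 ± 0.22 (adjusted p = 0.070). The Ifit genes named above were not, at -0.81 ± 0.40 for Ifit1 and 1.10 ± 0.52 for Ifit2.

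The 6 guanylate-binding and immunity-related GTPases, which attack vacuoles of intracellular microbes and respond to interferon gamma, had 0 members past the threshold after CCl4 in either genotype. Their differences lay between -0.06 for Iigp1 and 0.74 for Gbp2 in N-RAS+/+ livers. In N-RAS-/- livers the mean of Irgm2 was 7.94 after oil and 8.84 after CCl4. Irgm1 read 8.90 and 9.51 and Iigp1 8.54 and 8.52, all short of the threshold. Neither did the RNA sensors Ddx58, Ifih1 and Dhx58 (0.26, 0.19 and 0.52 in N-RAS+/+ livers) nor Irf1 and Irf8 (0.05 and 0.19) pass it. A miss here does not show that these levels were equal.

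**Figure D3:**
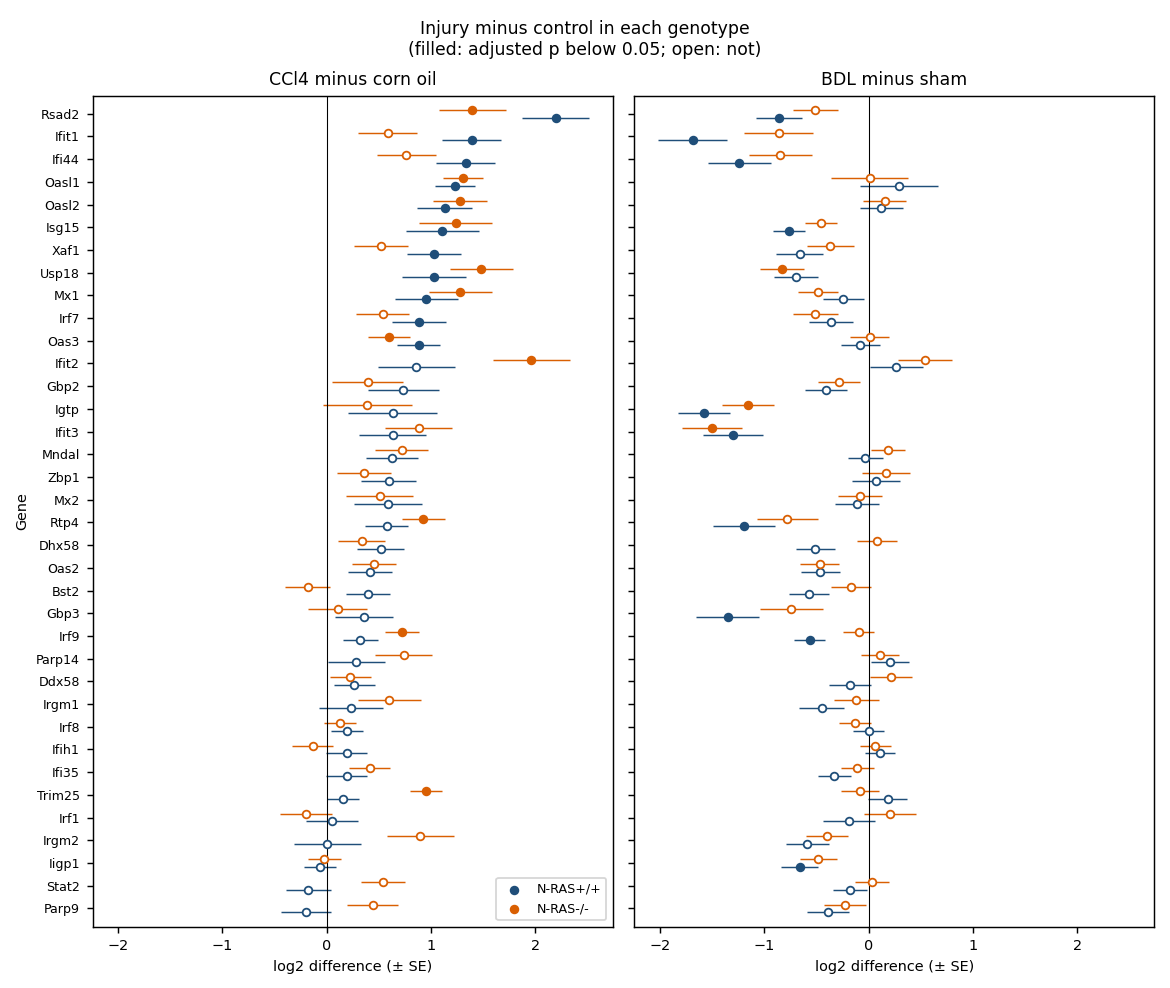
Log2 differences between injury and control with their SE for 36 members, blue for N-RAS+/+ and orange for N-RAS-/-, filled where the adjusted p was under 0.05. The CCl4 panel holds 11 filled points of each colour, all to the right of 0, and the BDL panel 10 blue and 3 orange ones, all to the left.

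Leaving out arrays moved these counts. The share of all genes called in each such fit is not given, so a moved count is not a result about the members alone. In N-RAS+/+ livers 5 members stayed past the threshold without CCl4 array N25, 6 without oil array N21 and 7 without oil array N23. Among N-RAS-/- livers 17 passed without CCl4 array N30, and 9 of the 11 calls remained without the low-Y oil array, with Isg15 and Oas3 lost. Calls of Rsad2, Ifit1, Oas3, Oasl1 and Ifi44 in N-RAS+/+ livers held without each array in turn. The N-RAS+/+ call of Isg15 was lost without any 1 of the 6 arrays, those of Mx1 and Usp18 without any of 5, and that of Irf7 without any of 4. The N-RAS-/- call of Oas3 was lost without any of 5 of the 6 arrays.

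Markers of other cell types moved as well. In bulk tissue fewer cells of a type and less RNA per cell cannot be told apart. Of 9 markers of infiltrating monocytes and macrophages, 8 rose after CCl4 in N-RAS+/+ livers and 5 in N-RAS-/- livers. Their summed linear signal went from 562 to 632 after oil to 1539 to 2707 after CCl4 in N-RAS+/+ livers, and from 691 to 948 to 1913 to 2553 in N-RAS-/- livers. Of 7 neutrophil markers 4 rose in each genotype. Of 7 markers of plasmacytoid dendritic cells, the main makers of alpha interferon, 0 rose and 0 fell in either, and 1 of the 7, Bst2, is itself a member. Of 7 markers of Kupffer cells, the resident macrophages, 2 rose in N-RAS+/+ livers, while 1 rose and 3 fell in N-RAS-/- livers. Markers of stellate cells and myofibroblasts rose for 1 of 7 and 5 of 7 genes. The part of these cells in the values of the 36 members was not tested.

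Of the genes upstream of the set, the ligands gave little signal. Of 17 interferon ligands, 0 were called after CCl4 in either genotype. Ifnb1 lay between 4.10 and 5.07 on all 24 arrays and Ifng between 2.71 and 4.12, both low on this scale. Of 6 receptors, Ifngr1 and Il10rb rose after CCl4 in both genotypes, by 0.62 ± 0.16 and 0.87 ± 0.17 in N-RAS+/+ livers and by 0.79 ± 0.16 and 0.50 ± 0.17 in N-RAS-/- livers. Ifngr2 rose by 0.52 ± 0.17 in N-RAS-/- livers and read 0.49 ± 0.17 in N-RAS+/+ livers (adjusted p = 0.067). Of 16 sensors and adaptors, 5 rose and 1 fell in N-RAS+/+ livers, and 4 rose and 0 fell in N-RAS-/- livers. Sting1, the adaptor for DNA in the cytosol, rose by 1.16 ± 0.22 and 1.02 ± 0.22, and the DNA-binding Ifi204 by 0.88 ± 0.26 and 1.34 ± 0.26. The nucleic acid receptors Tlr7 and Tlr9 and the DNA-binding Ifi203 rose in N-RAS+/+ livers, where Mavs, the adaptor of the RNA sensors, fell by 0.82. Tlr3, a receptor for double-stranded RNA, and the kinase Tbk1 rose in N-RAS-/- livers. Of 65 further interferon-induced genes, 16 rose and 1 fell in N-RAS+/+ livers, and 20 rose and 4 fell in N-RAS-/- livers. Cxcl10, a chemokine that draws T cells, was the first of them by adjusted p in N-RAS+/+ livers, at 5.93, 6.56 and 5.94 after oil and 8.86, 9.50 and 9.49 after CCl4.

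BDL gave the opposite sign. In N-RAS+/+ livers 10 of 36 members fell (27.8%) and none rose, where 2.7% of all genes fell and 4.51% rose. The median member difference was -0.40 against -0.01 over all genes, and 28 of 36 differences were negative. Only 3 members fell and none rose in N-RAS-/- livers, with 4.05% of all genes lower and 7.18% higher, at a median of -0.15. At an unadjusted p under 0.05, 16 and 13 members were lower and 0 higher, again with no share of all genes counted.

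Igtp, an immunity-related GTPase of endomembranes, fell in both genotypes. It read 7.70, 7.37 and 7.58 after sham in N-RAS+/+ livers and 6.62, 5.99 and 5.31 after BDL, a fall by 1.58 on the log2 scale (SE 0.25, adjusted p = 0.0015). The N-RAS-/- values went from 8.16, 7.74 and 8.14 to 6.84, 7.01 and 6.72 and fell by 1.16 (SE 0.25, adjusted p = 0.0087). Sham and BDL livers did not overlap in either genotype. Ifit3 likewise fell by 1.30 in N-RAS+/+ livers, from 8.47, 7.65 and 8.52 to 6.76, 6.67 and 7.32. The fall in N-RAS-/- livers was by 1.5, from 7.83, 7.65 and 8.76 to 6.56, 6.67 and 6.51.

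Ifit1 fell by 1.69 in N-RAS+/+ livers (SE 0.33, adjusted p = 0.0064), from 6.66, 5.88 and 6.03 to 4.06, 4.81 and 4.64. In N-RAS-/- livers the values were 5.30, 5.14 and 6.29 after sham and 4.34, 5.34 and 4.47 after BDL, and the groups overlapped. The remaining members that fell in N-RAS+/+ livers were Gbp3 (-1.35), Ifi44 (-1.24), Rtp4 (-1.20), Rsad2 (-0.86), Isg15 (-0.76), Iigp1 (-0.66) and Irf9 (-0.56). Usp18 fell in N-RAS-/- livers by 0.83, and its N-RAS+/+ difference was -0.69 (adjusted p = 0.063). The N-RAS-/- call of Usp18 was lost without sham array N08 or without BDL array N12, the array with the high Acta1 value. The oligoadenylate synthetases, Mx transcripts and RNA sensors had 0 members past the threshold in either genotype. Neither genotype differed from the other in its BDL response for any member (0 of 21144 genes called, 0%), although 2 members were higher at an unadjusted p under 0.05.

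The sham arrays bear on these falls, because 2 of the 3 N-RAS+/+ and all 3 N-RAS-/- sham arrays had the low Y-linked signal. Without those arrays 1 of the 10 falls in N-RAS+/+ livers, that of Rsad2, stayed past the threshold, with a single sham liver left whose spread is assumed to be that of the other groups. The N-RAS-/- comparison could not then be made. With the Y-linked signal as a term in the fit 1 member fell in N-RAS+/+ livers and 0 in N-RAS-/- livers. The remaining sham liver lay above all 3 BDL livers for 17 of the 36 members, where 28.2% of all genes did so. It lay below both low-Y sham livers of its genotype for 8 of the 10 members that fell. Those 10 had been called with the low-Y arrays included. Leaving out sham array N01, sham array N03 or BDL array N04 left 3, 4 and 4 falls.

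In the same livers, of the 65 further interferon-induced genes 8 fell and 2 rose in N-RAS+/+ livers, and 7 fell and 4 rose in N-RAS-/- livers. The chemokine Cxcl9 fell by 1.74 and 1.49. Receptors went the other way, with Ifngr1, Ifngr2 and Il10rb higher in both genotypes, by 0.56 to 0.93. Markers of infiltrating monocytes and macrophages rose for 8 of 9 genes in N-RAS+/+ and 9 of 9 in N-RAS-/- livers, and their summed signal went from 543 to 579 after sham to 3275 to 4579 after BDL in N-RAS+/+ livers. Bile duct markers rose for 5 of 5 and 4 of 5 genes, of which Spp1 is also on the macrophage list. Neutrophil markers rose for 0 of 7 and 5 of 7 genes, T and NK cell markers fell for 0 of 11 and 4 of 11, and B and plasma cell markers fell for 2 of 6 in each genotype. The part of these cells in the member values was not tested.

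The responses to both injuries were compared in 1 fit of all 24 arrays, CCl4 minus oil against BDL minus sham. In N-RAS+/+ livers 11 members had a higher CCl4 than BDL response and none a lower one, with 1.4% of all genes higher and 1.56% lower, and the median member difference was 0.91. Ifit1 and Rsad2 were apart by 3.08 ± 0.47 and 3.05 ± 0.42. The controls enter these differences. In N-RAS+/+ livers Ifit1 averaged 6.19 after sham and 4.95 after oil, and Rsad2 6.32 and 6.22. The N-RAS-/- count was 10 higher and 0 lower, with 4.4% of all genes higher and 4.74% lower. Here Ifit3 differed by 2.38 ± 0.47 and Usp18 by 2.31 ± 0.40. Without the 6 low-Y arrays the N-RAS+/+ count was 2, Ifit1 and Rsad2.

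Genotype was then compared within each treatment, with the control arrays shared between these and the comparisons above. After CCl4, 8 members were higher in the N-RAS-/- group (22.2%, with 8.72% of all genes higher) and 1 was lower (5.56% of all genes). The median member difference was 0.43 against -0.04 over all genes. After oil 1 member was higher and 1 lower, with 0.534% and 0.312% of all genes so called, although 33 of 36 differences were positive and the median was 0.35. At an unadjusted p under 0.05, for which no share of all genes was counted, 11 members were higher. Kupffer cell markers were higher in the same livers for 6 of 7 genes at an unadjusted p under 0.05 and for 0 after adjustment, with a median of 0.82, and their summed linear signal was 1450 to 2082 in N-RAS+/+ and 2334 to 3125 in N-RAS-/- livers. Of the other marker lists 1 gene was called, Jchain of plasma cells, higher by 1.80 ± 0.40. Their part in the member values was not tested. The genotype difference after CCl4 did not differ from that after oil for any member, which is the same test as that of the CCl4 responses above.

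Trim25 had the smallest adjusted p of the 8. It read 8.57, 8.62 and 8.43 in N-RAS+/+ and 9.29, 9.62 and 9.74 in N-RAS-/- livers after CCl4, a difference of 1.01 ± 0.16 (adjusted p = 0.00077). After oil the genotypes overlapped, at 8.28 to 8.52 and 8.41 to 8.76. Oas2 was higher by 1.11 ± 0.21 after CCl4, with 5.50, 5.99 and 6.15 in N-RAS+/+ and 6.97, 7.29 and 6.73 in N-RAS-/- livers. It was also higher after oil, by 1.08 ± 0.21 (adjusted p = 0.025), with 5.60, 5.23 and 5.57 against 6.22, 6.57 and 6.84. The oil call was lost when any of 5 of the 6 oil arrays was left out.

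Usp18 was higher by 1.38 ± 0.30 after CCl4 (adjusted p = 0.0075), and all 3 N-RAS-/- values, from 8.78 to 9.96, were above the N-RAS+/+ values. Ifit2 differed by 1.38 ± 0.37, with overlapping groups. Stat2 and Irf9, subunits of the complex at the ISRE, were higher, Stat2 by 0.87 ± 0.21 and Irf9 by 0.67 ± 0.17. Oasl2 and Rtp4 were higher by 0.93 ± 0.26 and 0.85 ± 0.21. Stat2 read 8.94, 8.41 and 8.15 in N-RAS+/+ livers and 9.11, 9.33 and 9.69 in N-RAS-/- livers, which did not overlap. After oil the means, N-RAS+/+ first, were 6.90 and 7.83 for Usp18, 6.54 and 7.32 for Oasl2 and 5.67 and 6.16 for Rtp4. Those of Ifit2 were 3.46 and 3.73, of Irf9 7.22 and 7.49 and of Stat2 8.68 and 8.84. None of these was called after oil. Rsad2, with the largest CCl4 response in N-RAS+/+ livers, differed by -0.23 ± 0.32 between the genotypes after CCl4.

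The N-RAS-/- CCl4 livers were uneven. Averaged over the members they stood at 7.18, 7.59 and 7.96, and array N32 had the highest value of its group for Igtp (9.63 against 7.39 and 7.94) and Isg15 (7.32 against 5.38 and 6.0). Without N32, 4 members were higher (Oas2, Oasl2, Usp18 and Trim25), Mndal was still lower, and the calls of Irf9, Stat2, Ifit2 and Rtp4 were lost. Calls of Oas2, Usp18, Trim25 and Mndal held without each array in turn.

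**Figure D4:**
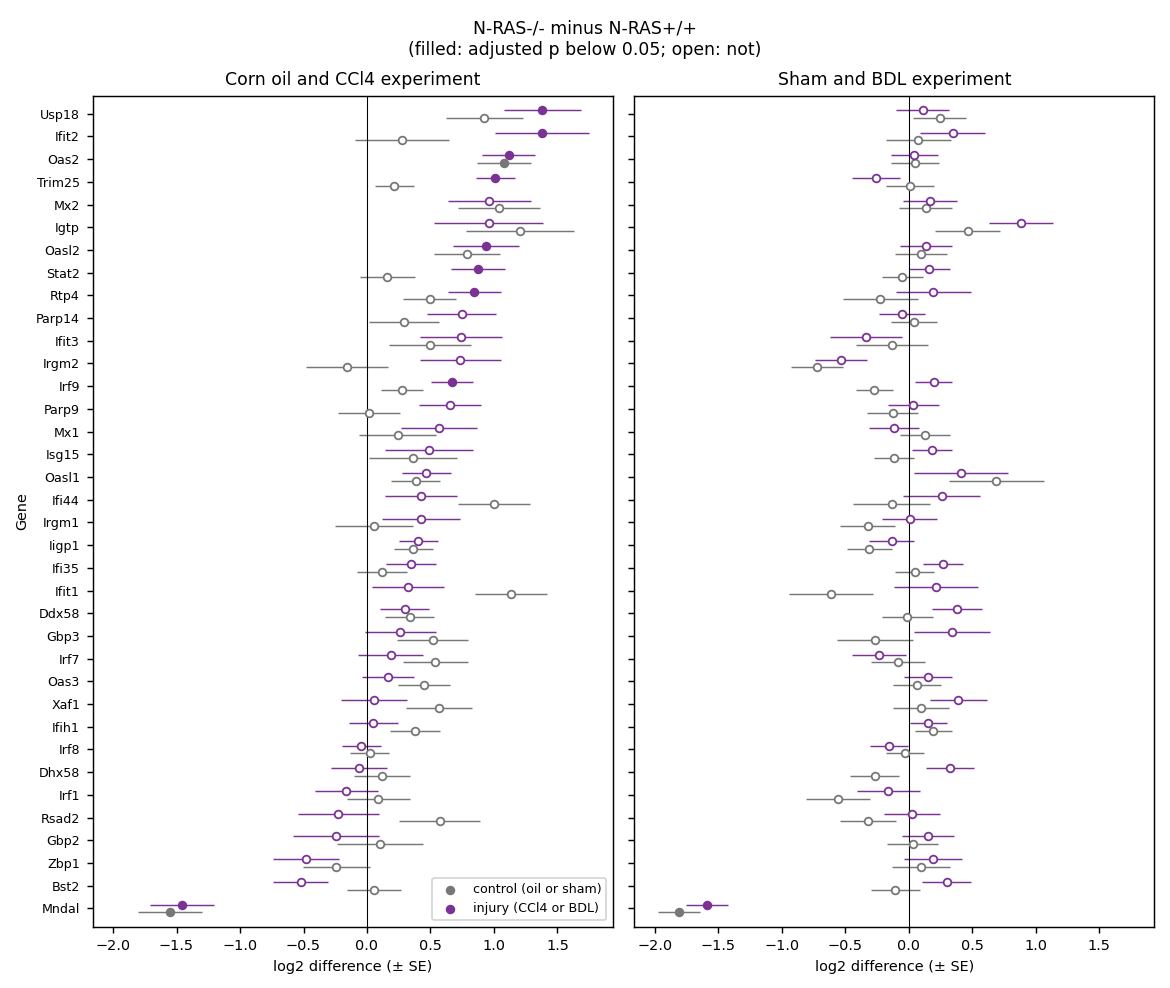
Log2 differences N-RAS-/- minus N-RAS+/+ with their SE for 36 members, grey for control and purple for injured livers, filled where the adjusted p was under 0.05. Mndal is the only member filled in all 4 settings, at -1.45 to -1.81, and the purple points after CCl4 lie mostly to the right of 0.

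Beside the members, 12 of the 65 further interferon-induced genes were higher and 1 lower in N-RAS-/- livers after CCl4. Znfx1 and Ddx60, both linked to antiviral RNA recognition, were higher by 1.43 ± 0.21 and 1.34 ± 0.24, and Adar, which edits double-stranded RNA, by 1.19 ± 0.21. Ticam1, the adaptor of Tlr3, was higher by 1.54 ± 0.18 after CCl4 and by 0.90 ± 0.18 after oil. After CCl4 Tlr3 and Tbk1 were also higher, by 1.08 ± 0.23 and 0.51 ± 0.16. Tlr9 differed by -0.67 ± 0.19 and the interferon ligand Ifnl2 by -0.59 ± 0.19, both called lower. Cxcl10 went against Znfx1, Ddx60 and Adar. It read 7.12, 7.55 and 6.85 in N-RAS-/- livers after CCl4, lower than in N-RAS+/+ livers by 2.11 (SE 0.26, adjusted p = 0.00013), and its CCl4 response was lower by 1.86 (SE 0.36, adjusted p = 0.017). Of 12 inhibitors of cytokine and inflammatory signalling, Pias1 had the smallest adjusted p and was higher by 1.06 ± 0.17. Socs3, Tnfaip3 and Irf2bp1 were lower by 1.22, 1.72 and 0.48. Of the marker lists, liver endothelial cells had Stab2 and Kdr higher of 7 genes (median 0.34, all 7 positive) and stellate cells and myofibroblasts Acta2 and Pdgfrb of 7. Cd9 of 9 monocyte and macrophage genes was higher, and of 11 T and NK cell genes Cd3e was higher and Gzma lower. The neutrophil, bile duct, conventional dendritic, plasmacytoid dendritic and skeletal muscle lists each had 1 gene lower, which were S100a9, Sox9, Batf3, Klk1 and Mylpf. Kupffer cell, hepatocyte and B cell lists had 0 calls. Their part in the member values was not tested.

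After sham and after BDL the genotypes differed for 1 member each, which was Mndal, lower in N-RAS-/- livers, where 0.18% of all genes were lower and 0.246% and 0.525% higher. Median member differences were -0.04 after sham and 0.15 after BDL. Igtp read 0.88 ± 0.25 higher after BDL and missed the threshold (adjusted p = 0.15). At an unadjusted p under 0.05, the BDL livers of N-RAS-/- mice had 5 of 7 Kupffer cell and 4 of 7 neutrophil markers higher, and 0 of either after adjustment.

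Mndal belongs with Ifi213 to the PYHIN family, proteins that bind DNA and whose genes lie in 1 cluster. Both were lower in N-RAS-/- livers under every treatment, and here too the deletion of Nras and any other genetic difference between the lines cannot be told apart. Mndal read 6.76, 6.47 and 7.08 in N-RAS+/+ and 4.87, 5.03 and 4.98 in N-RAS-/- livers after sham, 3.50-fold apart (adjusted p = 0.00022). After BDL the values were 6.96, 6.48 and 6.77 against 5.11, 5.13 and 5.20. After oil they were 6.64, 6.11 and 6.73 against 4.69, 4.97 and 5.18. After CCl4 they were 6.42, 7.51 and 7.44 against 5.59, 5.69 and 5.72. All 12 N-RAS+/+ values lay above all 12 N-RAS-/- values.

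Ifi213, measured under its older symbol, showed the same order with larger steps. Its group means were 6.90 and 4.32 after sham, 6.15 and 4.03 after BDL, 6.74 and 4.73 after oil, and 7.41 and 5.39 after CCl4, for N-RAS+/+ and N-RAS-/- livers in turn. The differences were -2.58 ± 0.25, -2.12 ± 0.25, -2.01 ± 0.29 and -2.01 ± 0.29, with adjusted p-values of 0.00034 to 0.0038. Neither gene changed with injury past the threshold in either genotype.

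The neighbours of this pair were read because of these values, after they had been seen. A probe set shared by Ifi202b and Ifi205, related genes that were not part of the fit, had the reverse order. It read 2.84 ± 0.05 after sham, 2.57 ± 0.35 after BDL, 2.87 ± 0.34 after oil and 2.80 ± 0.12 after CCl4 in N-RAS+/+ livers. The N-RAS-/- livers read 6.13 ± 0.36, 6.86 ± 0.34, 6.38 ± 1.0 and 7.81 ± 0.29. Which of the 2 genes carried the signal cannot be told apart. Ifi208 was lower in N-RAS-/- livers after sham (-1.44 ± 0.25) and BDL (-1.33 ± 0.25), Ifi209 after BDL (-1.36 ± 0.23), Ifi204 after sham (-1.09 ± 0.20) and Ifi206 after CCl4 (-0.73 ± 0.19). Ifi207, Ifi211, Ifi203 and Aim2 had 0 genotype calls. Of these, Mndal, Ifi213 and the probe set of Ifi202b and Ifi205 did not overlap between the genotypes in any of the 4 treatments. The share of all genes without such overlap was not counted. Related sequences within the family may cross-hybridize on an array, so these values are given per probe set.

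**Figure D5:**
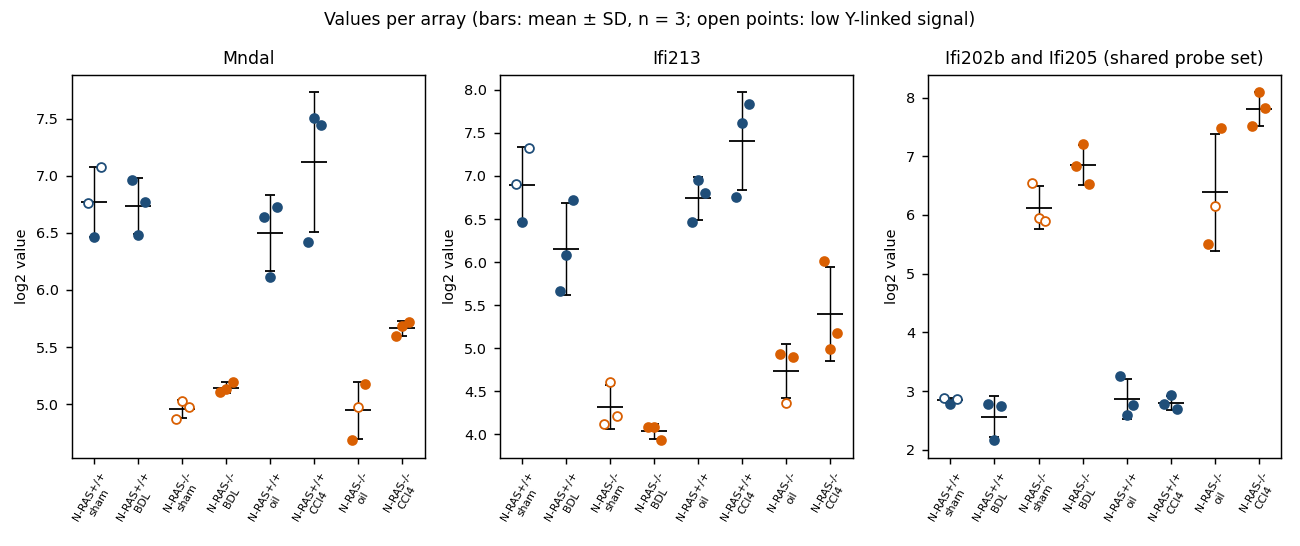
Log2 values of Mndal, Ifi213 and the probe set shared by Ifi202b and Ifi205 in each liver, with mean and SD of 3 mice as bars and arrays of low Y-linked signal as open points. In Mndal every N-RAS+/+ point (blue) lies above every N-RAS-/- point (orange), in Ifi213 this holds within each treatment, and in the shared probe set the order is reversed.

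Over the 8 comparisons of groups, 22 of the 36 members passed the threshold at least once and 14 never did. Those 14 were the sensors Ddx58, Ifih1, Dhx58 and Zbp1, the factors Irf1 and Irf8, the GTPases Gbp2, Irgm1, Irgm2 and Mx2, the tetherin Bst2, and Ifi35, Parp9 and Parp14. Their differences lay between -0.72 and 1.04 on the log2 scale, and their lowest adjusted p was 0.058. Of the 48 calls in all, 25 held when each array was left out in turn.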

How the data were processed

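Liver RNA of 24 mice was hybridised to Affymetrix mouse arrays (22206 probe sets). The deposited log2 values per probe set and array had been normalized by the authors, and the method is not given in the sources used here. MAS5 appears in the submitters' processing notes without a version, and both biotin and a Cy3 kit appear in the labels. The deposited linear signal of each group is the authors' mean of 3 arrays and served only to check the scale. Ratio and p-value columns hold the authors' own comparisons and were not used. How their normalization treated low values was not tested. A floor of 32 on the linear scale ended several calls. These included the call of Stat2 between genotypes after CCl4, although its values of 8.14 to 9.69 lay above that floor.

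Probe sets with 1 symbol (21367) were kept, those with several (836) or without any (3) were dropped, RefSeq (GRCm38.p6) gave newer symbols for 883, and for 143 genes the brightest of several probe sets was taken, which left 21144 genes. The 12 arrays of each experiment, or all 24 for the comparison of injuries, were fitted with limma 3.58.1 (lmFit, eBayes, in R 4.3.3), 1 coefficient per group, with Benjamini-Hochberg adjustment and a threshold of 0.05. The fit was tested on simulated data. Nothing in the labels says that mice shared a litter or batch, and 3 arrays a group limit the precision. Tables and figures used python 3.11.15, pandas 2.3.3, numpy 2.4.6 and matplotlib 3.10.9.

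The members and lists were chosen with earlier results of these data known. Named with full values were up to 6 called members per comparison with the largest differences and those completing a pair or family, from other lists up to 3 genes with the smallest adjusted p, and Ifnb1 and Ifng always. A further gene of this rule is not reported here. Alternatives were other fits, normalizations, filters, floors, tests and weights, leaving out each array, and leaving out or modelling the arrays of low Y-linked signal.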

Additional observations from a re-analysis of the deposited data

Results flagged for a closer look

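These results were picked out because the responses to CCl4 and to BDL differed by a test of that difference itself in the fit of all 24 arrays (limma, Benjamini-Hochberg adjusted p under 0.05). In N-RAS+/+ livers this held for 11 members, each with a higher CCl4 than BDL response. The log2 difference of responses was 3.08 for Ifit1, 3.05 for Rsad2, 2.57 for Ifi44, 2.21 for Igtp, 1.93 for Ifit3 and 1.87 for Isg15. It was 1.77 for Rtp4, 1.72 for Usp18, 1.71 for Gbp3, 1.69 for Xaf1 and 0.89 for Irf9.

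Among N-RAS-/- livers it held for 10 members, again all with a higher CCl4 response. The difference was 2.38 for Ifit3, 2.31 for Usp18, 1.91 for Rsad2, 1.77 for Mx1, 1.71 for Rtp4 and 1.70 for Isg15. It was 1.61 for Ifi44, 1.12 for Oasl2, 1.03 for Trim25 and 0.82 for Irf9. Both differences use the sham arrays, of which 5 of 6 had the low Y-linked signal.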

How the results depend on the processing

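Counts of members past the threshold are given here as main count and then alternative. The share of all genes called under each alternative is not given beside them. A moved count is therefore not a result about the members alone. Genotype after CCl4 had 9 calls, 4 with a floor of 32, 5 with a fold change of at least 2 as a second condition, and 0 with the methods' t-test after adjustment. Genotype after oil had 2 calls, 0 with the floor and the adjusted t-test, 8 with the unadjusted t-test, and 1 each in a fit of only the groups compared, without the 6 low-Y arrays and with the Y-linked signal as a term. Genotype after BDL and after sham had 1 call each and 0 with the adjusted t-test, and sham had 2 with the unadjusted one. CCl4 in N-RAS+/+ livers had 11 calls, 5 with the floor and 2 with the adjusted t-test. In N-RAS-/- livers it had 11, 7 with the floor, 7 with the fold condition and 0 with the adjusted t-test. BDL in N-RAS+/+ livers had 10 calls, 6 with only the groups compared, 6 with the fold condition, 2 with the floor, 0 with the adjusted t-test, and 1 both without the low-Y arrays and with the Y-linked term. In N-RAS-/- livers it had 3, 5 with only the groups compared or with array weights, 1 with all 24 arrays or the adjusted t-test, 8 with the unadjusted t-test and 0 with the Y-linked term. The genotype difference after CCl4 minus after oil had 0 calls, and 1 (Trim25) with a filter at the 40th percentile or a trended and robust eBayes. CCl4 minus BDL response in N-RAS+/+ livers had 11 calls, 7 with the floor and 2 without the low-Y arrays.

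Leaving out each array in turn gave 5 to 12 calls for genotype after CCl4, 0 to 2 after oil, 1 to 2 after BDL, 5 to 11 and 9 to 17 for CCl4 in N-RAS+/+ and N-RAS-/- livers, 3 to 11 and 2 to 5 for BDL, and 6 to 13 and 8 to 15 for the difference of responses. No member changed sign while called. Oasl1 after CCl4 in N-RAS+/+ livers kept its call under 21 of 21 alternatives. The causes of these shifts were not tested. Comparisons with N-RAS-/- sham could not be fitted without the low-Y arrays. Low values such as those of Oas3, at 3.04 to 4.51, limit what the array resolves. No paired analysis was possible because no replicate number is shared by 2 groups.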
